A study of Mus musculus with 10 samples.

Results

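The genes described were those of the STAT transcription factors Stat2, Stat3, Stat4, Stat5a, Stat5b and Stat6, taken by gene name from a table of 35958 features, where each of the 6 names occurred once. They were measured in pieces of WEHI 164 tumors, a fibrosarcoma line of the mouse, implanted subcutaneously into female wild-type BALB/c mice. Each piece came from the part of the tumor removed at a partial resection, before a hydrogel releasing poly(I:C), a synthetic double-stranded RNA, was laid in the wound. No piece had therefore been treated. RNA-seq was done on 5 tumors of mice whose disease later regressed completely (responders, RS) and on 5 tumors of mice whose tumors grew without delay (non-responders, NR). Tumors are named by their numbers in the labels, 5, 9, 10, 11 and 12 for responders and 1, 2, 3, 6 and 7 for non-responders. All 10 grew from the same line in mice of the same strain and sex, and each piece held host cells as well as tumor cells. The mice were adults by the methods of the study, and no age is given for single animals. Libraries held 16002778 to 31160578 estimated counts in responders and 19863697 to 28275958 in non-responders. The comparison asked whether STAT transcripts already differed before treatment between tumors that later responded and those that did not.

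STAT proteins wait in the cytoplasm until a cytokine receptor is engaged. Janus kinases bound to the receptor then phosphorylate them, and they pair, enter the nucleus and switch on target genes, among them the SOCS genes that shut the receptor down. STAT2 works with Irf9 in the response to type I interferon, STAT3 follows the IL6 family, STAT4 follows IL12 in T cells and NK cells, STAT5A and STAT5B follow the IL2 family and growth hormone, and STAT6 follows IL4 and IL13. Activation is a change of the protein, which RNA levels do not measure.

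The 6 genes lie on 3 chromosomes of the mouse (GENCODE vM21 on GRCm38). Stat4 was annotated on chromosome 1 (chr1:51987148-52107189, plus strand). Stat6 (chr10:127642986-127660957, plus strand) and Stat2 (chr10:128270559-128292849, plus strand) were 609.6 kb apart on chromosome 10, with 26 protein-coding genes between them. Stat5b (chr11:100780731-100850724, minus strand), Stat5a (chr11:100859351-100885169, plus strand) and Stat3 (chr11:100885098-100939540, minus strand) formed a cluster on chromosome 11. Stat5a and Stat5b were 8.63 kb apart with no protein-coding gene between them, and the ends of Stat5a and Stat3 overlapped by 72 bp on opposite strands. Stretches of 31 bases, the word length by which the counting tool assigns reads by default, were shared with another gene at 12.3% of the positions of Stat5a and 15.2% of those of Stat5b, nearly all of them between the pair. For Stat4 the shared part was 23.7%, all with Gm28177, an annotated gene on the same strand that was not analysed here. It was 2.36% for Stat3, 1.89% for Stat2 and 0.226% for Stat6. The levels of Stat5a, Stat5b and Stat4 are to that extent less certain than those of the other STAT genes.

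Promoters of 300 bases around each start site (RefSeq on GRCm38.p6) were found for all 6 genes, 9 in all. They were searched on both strands for TTCNNNGAA, the palindrome that STAT dimers bind, and GAAANNGAA, the core of the element bound by STAT2 with Irf9. The first was in 8.3% and the second in 8.56% of all 32851 promoters. None of the 9 promoters held TTCNNNGAA, and 2 held GAAANNGAA. The Stat2 match began 221 bases before the start site (chr10:128270248-128270547, plus strand) and reads TTCAGTTTC there, since the motif lies on the other strand. The Stat4 match began 97 bases before the start of a transcript inside the gene (chr1:52007990-52008289, plus strand). Both are shown 5′ to 3′ because they were the only STAT promoters with a match, which is in capitals.
Stat2: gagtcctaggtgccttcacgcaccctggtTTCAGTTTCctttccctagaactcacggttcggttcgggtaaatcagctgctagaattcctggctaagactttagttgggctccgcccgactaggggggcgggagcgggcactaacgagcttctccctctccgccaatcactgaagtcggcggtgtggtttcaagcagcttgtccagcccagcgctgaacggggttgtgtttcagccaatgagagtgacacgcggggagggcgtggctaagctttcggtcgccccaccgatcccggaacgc
Stat4: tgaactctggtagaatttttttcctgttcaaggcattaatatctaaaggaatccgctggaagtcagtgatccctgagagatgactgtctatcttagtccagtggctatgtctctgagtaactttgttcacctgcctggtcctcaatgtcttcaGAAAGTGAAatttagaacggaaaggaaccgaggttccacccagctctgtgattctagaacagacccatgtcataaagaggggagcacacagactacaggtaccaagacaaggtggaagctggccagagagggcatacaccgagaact

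Levels differed widely among the 6 genes. Per length, as CPM (counts scaled to a common library size) per kb of the longest annotated transcript, Stat6 stood at 43.9 ± 1.23 (SD, n = 10), Stat2 at 32.9 ± 5.04 and Stat3 at 30.2 ± 2.69. These 3 were at the 89.9, 85.5 and 83.8 percentiles of 14636 genes with a length. Stat5a was intermediate at 9.6 ± 0.812, Stat5b low at 2.71 ± 0.475 and Stat4 lowest at 1.21 ± 0.389, at the 22.6 percentile. Stat6, Stat2 and Stat3 together made up most of the sum over the 6 genes per length, with 36.6%, 27.2% and 25% of it, and Stat4 made up 1%. In each of the 10 tumors Stat6 was highest, followed by Stat2 and Stat3 in either order, then Stat5a, Stat5b and Stat4. Stat2 exceeded Stat3 per length in 7 tumors and fell below it in responder 10 and non-responders 1 and 2, so on this length these neighbours did not differ beyond their spread. Per kb of the union of annotated exons Stat2 exceeded Stat3 in 9 tumors, all but non-responder 2. Their order in responder 10 and non-responder 1 thus depends on the length used. Stat5a exceeded Stat5b per length in every tumor, by 3.17 to 4.74 times with a median of 3.36, and by 1.87 to 2.8 times with a median of 1.98 on the union of exons. Dividing by the union of annotated exons kept the order of the means but lowered the values to 37.7 for Stat6, 24.4 for Stat2, 19.1 for Stat3, 5.33 for Stat5a, 2.55 for Stat5b and 0.931 for Stat4.

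**Figure D1:**
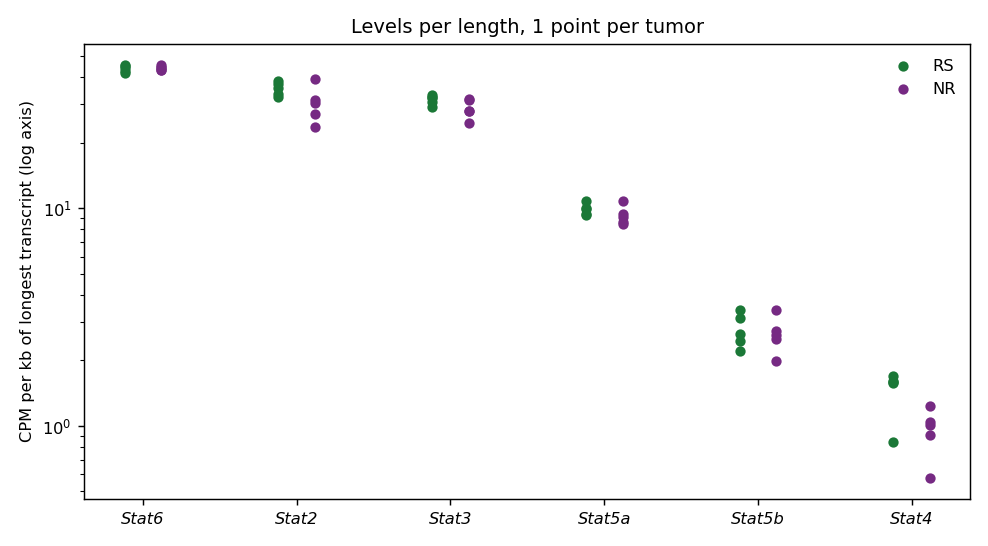
Level per length of each STAT gene on a log axis, as CPM per kb of the longest transcript, with 1 point per tumor (RS green, NR purple). Stat6, Stat2 and Stat3 lie near each other at the top, and Stat4 lies lowest with a mean of 1.21.

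No STAT gene differed between responders and non-responders at an adjusted p under 0.05. In the edgeR quasi-likelihood test with Benjamini-Hochberg adjustment, 0 of 15767 features (0%) passed this threshold, 1295 had an unadjusted p under 0.05, and DESeq2 called 4 features and limma-voom 0. The 4 features were Col6a1, Col6a2, Flnc and Nes, named here after their values were seen, and none is a STAT gene. At an unadjusted p under 0.05, 1 of the 6 STAT genes, Stat4, passed, beside a background of 8.21% of all features in either direction and 4.21% higher in responders. This count was 0 with T cell and NK cell markers as a covariate, 3 with DESeq2 or no filter (Stat2, Stat3 and Stat4), 2 with limma-voom (Stat2 and Stat4) and 1 to 3 with single tumors left out, 3 without non-responder 1 (Stat3, Stat4 and Stat5a) or non-responder 3 (Stat2, Stat3 and Stat4). The share of all features with such a p was 3.9% with the covariate, 7.9% with DESeq2, 6.78% with no filter, 8.44% with limma-voom, 9.78% without non-responder 1 and 9.06% without non-responder 3. The estimate was higher in responders for 5 of the 6 genes, where 48.6% of all features had a higher estimate. The groups overlapped for all 6 genes, and 0.926% of all features had groups that did not overlap. Their median log2 fold change was 0.11, beside -0.0036 over all features. All 6 genes passed the filter on low values, and the exact permutation tests given below, which are not adjusted, can reach no p below 0.00794.

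**Figure D2:**
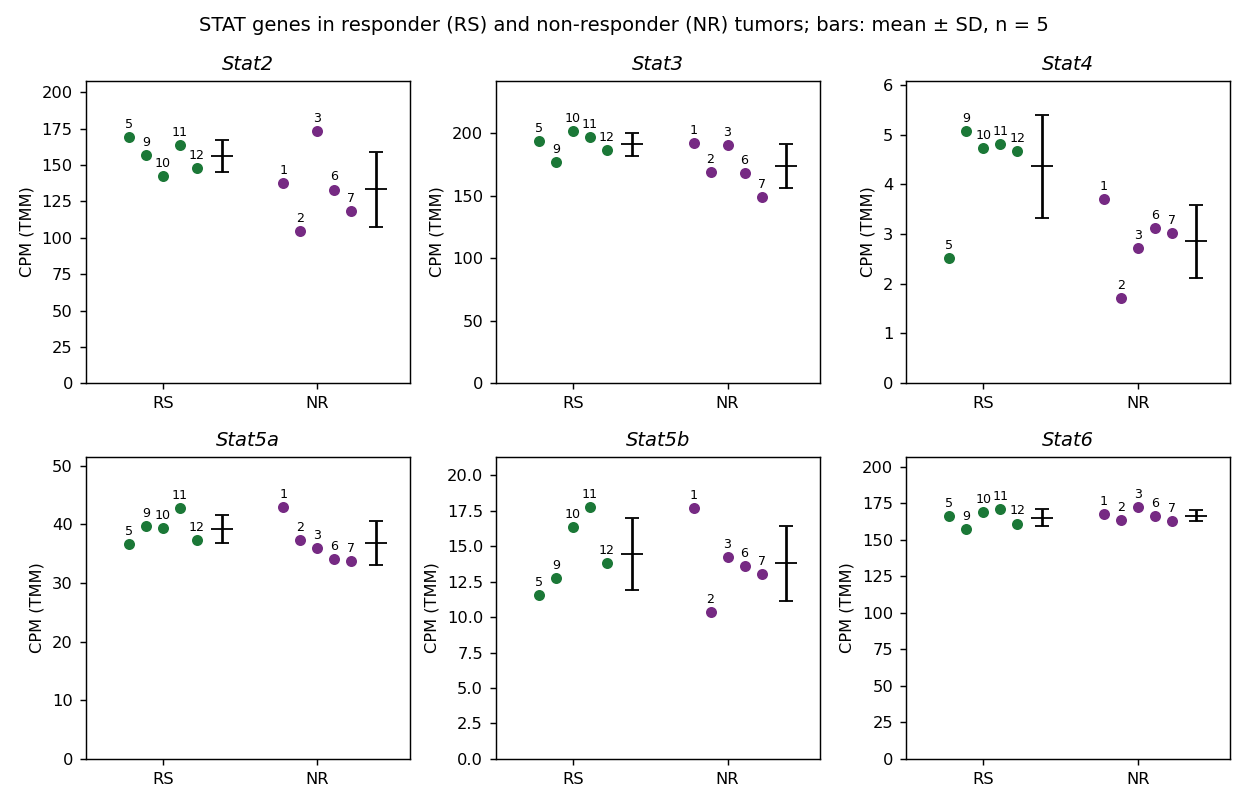
TMM-scaled CPM of the 6 genes by tumor (number: tumor), with the mean ± SD of each group of 5 beside the points. Stat4 shows 4 responders above every non-responder and responder 5 among the non-responders, and Stat6 is flat.

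Stat2 encodes the partner of Irf9 in the interferon response. Its TMM-scaled level was 169, 157, 142, 164 and 148 CPM in responders 5, 9, 10, 11 and 12, and 138, 104, 173, 133 and 119 CPM in non-responders 1, 2, 3, 6 and 7. The 5 responders lay close together, and 4 non-responders lay below all of them. Non-responder 3 was the highest tumor of all, so the groups overlapped. Responders averaged 156 ± 11 CPM and non-responders 133 ± 25.8 CPM (SD over 5 tumors in each group). The log2 fold change was 0.23 (95% interval -0.01 to 0.46, edgeR adjusted p = 0.615), and the exact two-sided permutation test gave p = 0.0952. Only non-responder 3 was not below every responder, so leaving it out ended the overlap by construction. The exact permutation p without it, 0.00794, was thus fixed in advance and is no test of the difference. The log2 fold change was 0.34 without non-responder 3 (edgeR adjusted p = 0.287) and 0.15 without non-responder 2 (edgeR adjusted p = 0.728).

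Stat3 encodes the main STAT of IL6 signaling. It stood at 193, 177, 201, 197 and 187 CPM in responders 5, 9, 10, 11 and 12, and at 192, 169, 190, 168 and 149 CPM in non-responders 1, 2, 3, 6 and 7. Responders 5, 10 and 11 exceeded every non-responder, non-responders 2, 6 and 7 fell below every responder, and the other tumors mixed. Means were 191 ± 9.42 and 174 ± 17.8 CPM. The difference of 0.14 on the log2 scale (95% interval -0.01 to 0.28) did not pass the test (edgeR adjusted p = 0.62, exact permutation p = 0.0794). It ranged from 0.09 without non-responder 7 to 0.18 without non-responder 1 (edgeR adjusted p = 0.856 and 0.42), and without non-responder 1 or 3 the exact permutation p was 0.0476.

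Stat4, the STAT through which IL12 acts on T cells and NK cells, had the largest fold of the 6 and the fewest reads, 48 to 148 rounded estimated counts per tumor. It stood at 5.06, 4.73, 4.81 and 4.68 CPM in responders 9, 10, 11 and 12 and at 2.52 CPM in responder 5. Non-responders 1, 2, 3, 6 and 7 had 3.7, 1.71, 2.72, 3.11 and 3.01 CPM. The first 4 responders thus exceeded every non-responder, as 3.08% of all features did in at least 4 responders, whereas responder 5 lay below non-responders 1, 3, 6 and 7. The means were 4.36 ± 1.04 and 2.85 ± 0.728 CPM, a fold of 1.53. The log2 fold change was 0.61 (SE 0.22, 95% interval 0.14 to 1.09) with an unadjusted p of 0.0151 and an edgeR adjusted p of 0.58. It was at the 98 percentile of all features, and its p ranked 391 of 15767. The exact permutation test gave p = 0.0397, and leaving out any 1 of responders 9, 10, 11 and 12 or non-responders 2, 3, 6 and 7 raised it to between 0.0635 and 0.0873. Without responder 5 the log2 fold change was 0.77 (edgeR adjusted p = 0.103), and leaving out any other tumor gave 0.47 (without non-responder 2) to 0.73 (without non-responder 1).

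Stat5a and Stat5b encode close paralogs that IL2 family cytokines activate. Stat5a had 36.7, 39.7, 39.4, 42.8 and 37.3 CPM in responders 5, 9, 10, 11 and 12, and 42.9, 37.3, 35.9, 34.1 and 33.7 CPM in non-responders 1, 2, 3, 6 and 7. Non-responder 1 was the highest tumor and the other non-responders lay below responders 9, 10, 11 and 12. The log2 fold change was 0.09 (95% interval -0.06 to 0.24, edgeR adjusted p = 0.753, exact permutation p = 0.238). It was 0.15 without non-responder 1 (edgeR adjusted p = 0.431, exact permutation p = 0.0397) and 0.06 without responder 11 (edgeR adjusted p = 0.927). Stat5b had 11.5, 12.8, 16.4, 17.8 and 13.8 CPM in responders 5, 9, 10, 11 and 12, and 17.7, 10.4, 14.2, 13.6 and 13.1 CPM in non-responders 1, 2, 3, 6 and 7. Its groups overlapped almost wholly, with responder 11 and non-responder 1 at the top and non-responder 2 and responder 5 at the bottom. The log2 fold change was 0.07 (95% interval -0.24 to 0.38, edgeR adjusted p = 0.921, exact permutation p = 0.69), and its sign turned without responder 11 (-0.01) or without non-responder 2 (-0.02).

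Stat6, which carries the IL4 and IL13 signal, varied least. It had 166, 158, 169, 171 and 161 CPM in responders 5, 9, 10, 11 and 12, and 168, 163, 172, 166 and 163 CPM in non-responders 1, 2, 3, 6 and 7. The highest tumor exceeded the lowest by 1.09 times, and the coefficient of variation over the 10 tumors was 2.8%, beside 32.2% for Stat4, 17.5% for Stat5b, 15.3% for Stat2, 8.92% for Stat3 and 8.46% for Stat5a. The log2 fold change was -0.01 (95% interval -0.1 to 0.07, edgeR adjusted p = 0.96, exact permutation p = 0.627). At this precision a difference of more than 0.1 in either direction on the log2 scale lay outside the interval.

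**Figure D3:**
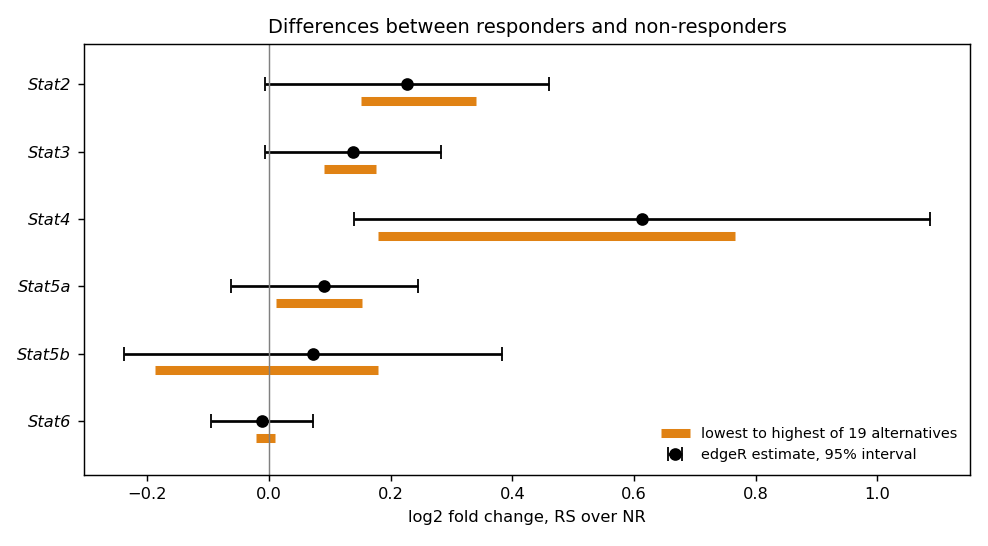
Log2 fold change of each STAT gene, RS over NR, with its 95% interval from edgeR (black) and the range over 19 other ways of fitting the data, single tumors left out included (orange). Only the interval of Stat4 lies above 0, and it is the widest.

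Markers of the fibroblast lineage, to which the line belongs, were abundant in every piece: 12 of 12 passed the filter, and Vim, which encodes the filament protein vimentin, stood at 4241 to 5616 CPM. Macrophage markers had the highest sum among the immune lists, with 1302 to 1955 CPM in sum and C1qa, a complement gene, the most abundant at 292 to 439 CPM. T cell markers were all detected (12 of 12 passed) but low, with 25 to 71.5 CPM in sum in responders and 25.9 to 53.4 in non-responders, and the kinase Lck led with 4.75 to 14 CPM. NK cell markers summed to 42.9 to 233 CPM in responders and 36 to 87.1 in non-responders, 9 of 12 passed, Gzma led with 5.46 to 112 CPM, and Klra8 was at 0 in all tumors. The mean log2(CPM + 1) of the NK cell markers was 3.1 ± 0.591 in responders and 2.4 ± 0.37 in non-responders (exact permutation p = 0.0635, adjusted p = 0.258 over 13 marker lists). That of the T cell markers was 2.25 ± 0.436 and 1.93 ± 0.281 (exact permutation p = 0.206, adjusted p = 0.383). The score differences of the other 11 lists, RS minus NR, were 0.42 for neutrophils, 0.38 for mast cells, 0.16 for keratinocytes, 0.13 for macrophages, 0.08 for B cells, 0.07 for dendritic cells, -0.01 for mammary epithelium, -0.05 for fibroblasts, -0.18 for endothelial cells, -0.22 for adipocytes and -0.41 for skeletal muscle, none with an adjusted permutation p under 0.258. Without adjustment the exact permutation p was lowest for keratinocytes among the 13 lists, at 0.032, with 0.0714 for endothelial cells and 0.0794 for mast cells. The keratinocyte score rested on 4 of 10 markers, since Krt5, Krt14, Krt1, Krt15, Dsg3 and Lor did not pass the filter. The neutrophil score rested on 6 of 10. In bulk pieces, fewer cells of a type and less RNA per cell cannot be told apart.

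Responder 5 had the lowest T cell score of all tumors, 1.52, and a NK cell score of 2.12, below every other responder. Without it the difference in NK cell score rose from 0.7 to 0.95 and that in T cell score from 0.33 to 0.51 (exact permutation p = 0.00794 and 0.0238). Every other responder had a higher NK cell score than every non-responder. Leaving out responder 5 thus fixed the first p in advance, at the smallest that these 9 tumors can give. Other marker lists moved with single tumors too: the endothelial difference was -0.21 without responder 5 (exact permutation p = 0.0238), and without non-responder 1 that of neutrophils was 0.55 and that of mast cells 0.52 (exact permutation p = 0.0397 and 0.0238). Stat4 followed both scores from tumor to tumor. Over the 10 tumors its log2(CPM + 1) had r = 0.943 with the NK cell score (rho = 0.952, permutation p = 8e-05 and 0.00012, adjusted p = 0.0008 and 0.0012 over 10 relations). With responder 11 and non-responder 2, whose scores were most distant from the median, left out, r was 0.96 (permutation p = 0.000819), and as deviations from the group means it was 0.904. With the T cell score r was 0.907 (rho = 0.939, permutation p = 0.00051 and 0.0003, adjusted p = 0.00223 and 0.0015). Without responder 5 and non-responder 2 this r was 0.884 (permutation p = 0.00298), and within the groups it was 0.908. With the mean of both marker lists as a covariate in edgeR, the log2 fold change of Stat4 was 0.18 (edgeR adjusted p = 0.975), down from 0.61, while that of Stat2 was 0.22, that of Stat3 0.11 and that of Stat5a 0.01. The sign of Stat5b turned, to -0.19.

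**Figure D4:**
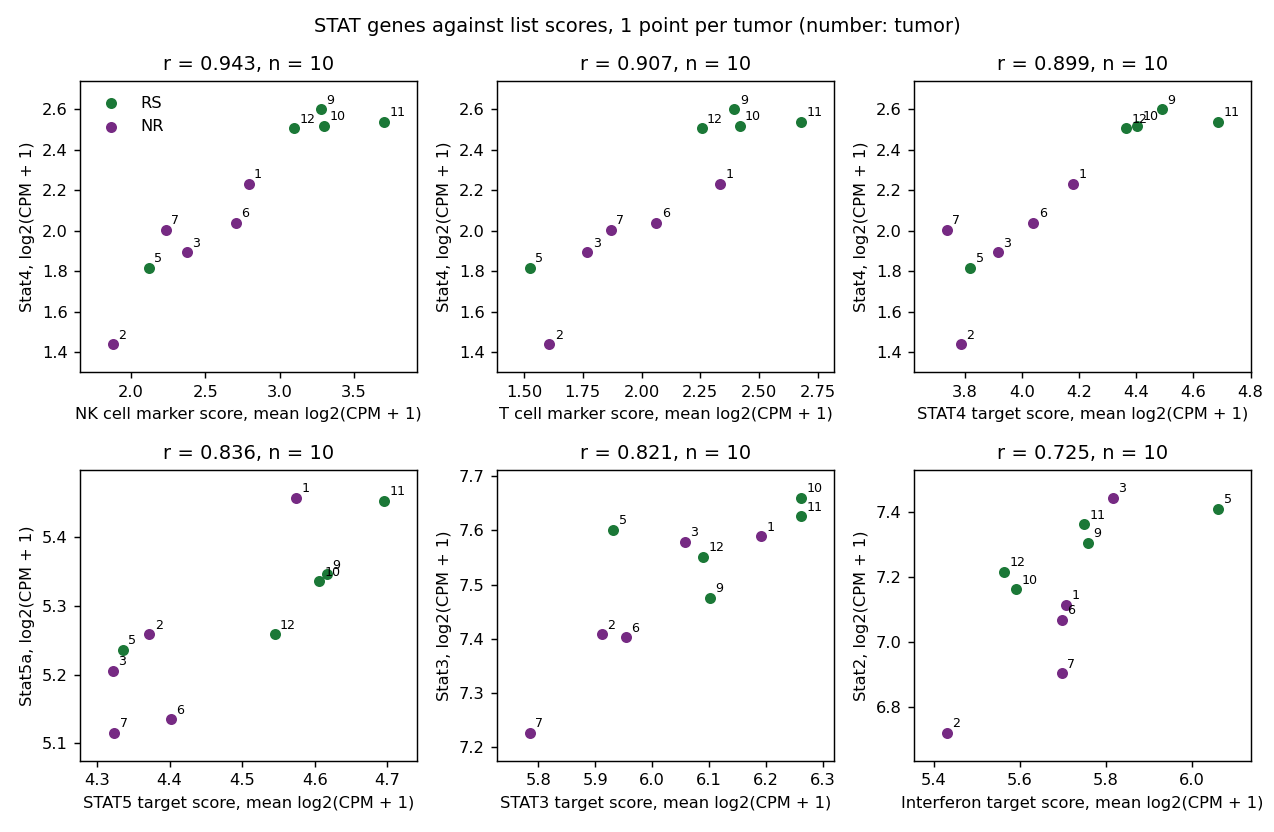
STAT genes against the mean log2(CPM + 1) of marker or target lists, 1 point per tumor (number: tumor), RS green and NR purple. Stat4 rises with the NK cell, T cell and STAT4 target scores across both groups. In these Stat4 panels responder 5 lies in the lower part, and it is lowest of all tumors on the T cell score.

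Targets of each STAT were listed from general knowledge, and each STAT gene was set against the mean of its own targets over the 10 tumors. No STAT gene was set against the targets of another STAT. Stat4 went with its targets most closely (r = 0.899, rho = 0.915, permutation p = 0.00067 and 0.00061, adjusted p = 0.00223 and 0.00203). Without responders 9 and 11 r was 0.886 (permutation p = 0.00265), and within groups 0.822. The STAT4 targets include Gzmb and Prf1, granule genes of cytotoxic lymphocytes. Stat4 had r = 0.943 with the NK cell score and 0.907 with the T cell score. The part of such cells in its relation with the targets was not tested. Stat5a and the STAT5 targets had r = 0.836 (rho = 0.83, permutation p = 0.00308 and 0.0048, adjusted p = 0.00616 and 0.012), and r = 0.774 without responder 11 and non-responder 3 (permutation p = 0.026), and within groups 0.808. For Stat3 and the STAT3 targets r was 0.821 (rho = 0.733, permutation p = 0.00263 and 0.0209, adjusted p = 0.00616 and 0.0349). This relation rested in part on responder 11 and non-responder 7, since without them r was 0.659 (permutation p = 0.0811), and within groups it was 0.755. For Stat2 and the interferon targets r was 0.725 (rho = 0.77, permutation p = 0.018 and 0.0123, adjusted p = 0.0299 and 0.0247), and it rested on responder 5 and non-responder 2, without which r was 0.431 (permutation p = 0.29), although within groups it was 0.735 (permutation p = 0.0187). Stat5b with the STAT5 targets (r = 0.668, rho = 0.455) did not pass after adjustment (permutation p = 0.0412 and 0.192, adjusted p = 0.0589 and 0.274), and had r = 0.733 within groups. Stat6 with the STAT6 targets had r = 0.165 (rho = 0.176, permutation p = 0.647 and 0.632), and with the macrophage markers r = 0.424 (rho = 0.345, permutation p = 0.223 and 0.332). Stat5a with the adipocyte markers had r = -0.289 (rho = -0.273, permutation p = 0.412 and 0.449). Among the STAT genes themselves none of 15 pairs passed after adjustment. The pair with the highest Pearson r, though not the highest rho or the highest r within groups, was Stat2 with Stat3 (r = 0.677, rho = 0.588, permutation p = 0.0304 and 0.0811, adjusted p = 0.177 and 0.223), which was 0.354 without non-responders 2 and 7 (permutation p = 0.392).

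The genes whose pattern over the 10 tumors was most like that of each STAT gene were sought among 10972 features with a mean of at least 5 CPM, as a description. The 3 nearest to Stat2 were Tgtp2 (r = 0.996), Irgm2 (r = 0.99) and Gbp7 (r = 0.982), which encode interferon-inducible GTPases and have close paralogs that can share reads. Irgm2 stood at 297, 266, 227, 306 and 253 CPM in responders 5, 9, 10, 11 and 12, and at 210, 137, 304, 214 and 161 CPM in non-responders 1, 2, 3, 6 and 7. Irgm2 was thus lowest in non-responder 2, as Stat2 was, and high in non-responder 3 among the responders. All 3 promoters held both motifs, as TTCNNNGAA and GAAANNGAA, while 8.3% and 8.56% of all promoters hold each of them. Those of Tgtp2 and Irgm2 have nearly the same stretch around the matches, so they are not independent. A part of STAT binding in the shared pattern was not tested. The 3 promoters are shown beside that of Stat2 with the matches in capitals (RefSeq, GRCm38.p6, 5′ to 3′ along the strand of the gene): Tgtp2 at chr11:49064163-49064462, minus strand, Irgm2 at chr11:58214727-58215026, plus strand, and Gbp7 at chr3:142530086-142530385, plus strand.
Tgtp2: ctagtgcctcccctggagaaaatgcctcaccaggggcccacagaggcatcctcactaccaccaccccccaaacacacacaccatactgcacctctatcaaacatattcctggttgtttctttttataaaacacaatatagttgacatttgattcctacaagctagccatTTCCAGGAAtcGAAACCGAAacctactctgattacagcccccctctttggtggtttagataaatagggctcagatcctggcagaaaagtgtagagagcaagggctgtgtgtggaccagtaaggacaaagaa
Irgm2: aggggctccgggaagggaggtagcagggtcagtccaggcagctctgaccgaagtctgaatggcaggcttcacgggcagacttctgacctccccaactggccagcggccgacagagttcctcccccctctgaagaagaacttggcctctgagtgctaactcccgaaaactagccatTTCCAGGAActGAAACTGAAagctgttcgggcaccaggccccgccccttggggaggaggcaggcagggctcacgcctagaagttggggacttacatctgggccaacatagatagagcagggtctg
Gbp7: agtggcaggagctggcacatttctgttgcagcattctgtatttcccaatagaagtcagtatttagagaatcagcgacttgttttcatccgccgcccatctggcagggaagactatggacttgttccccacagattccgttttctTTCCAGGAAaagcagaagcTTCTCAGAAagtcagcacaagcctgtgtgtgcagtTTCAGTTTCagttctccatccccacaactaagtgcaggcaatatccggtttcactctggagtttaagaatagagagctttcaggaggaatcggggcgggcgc

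The genes nearest to Stat3 were Sbno2 (r = 0.906), Cd300a (r = 0.899) and Gm8341 (r = 0.895). Those nearest to Stat4 were Cd200 (r = 0.961), Gm15056 (r = 0.956) and Nkg7 (r = 0.95), the last a granule gene of cytotoxic lymphocytes and one of the NK cell markers used. Stat5a was most like Slc35f6 (r = 0.963), Timp1 (r = 0.96), a protease inhibitor gene on the list of STAT3 targets, and Prkcd (r = 0.948). Stat5b was most like Ssh3 (r = 0.958), Rsrp1 (r = 0.956) and Itga9 (r = 0.936). For Stat6, which varied least, the nearest genes were less close, with Pomgnt1 at r = 0.864, Nab2 at r = 0.863 and Dok3 at r = 0.862. Nab2 overlaps Stat6 on the opposite strand and stood at 99.5 to 120 CPM. Of the 18 genes, 17 had promoters in the table, and 6 of them held TTCNNNGAA in at least 1 promoter and 5 held GAAANNGAA.

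The rest of the pathway was read from the same edgeR fit, beside a background of 4.21% of features higher in responders at an unadjusted p under 0.05 and a median log2 fold change of -0.0036. No gene of any list passed at an adjusted p under 0.05, and all values below are estimates with their SE. Of the 4 Janus kinases, Jak3, which serves the receptors that share the gamma chain, was 0.28 ± 0.08 higher in responders on the log2 scale (unadjusted p = 0.00388, adjusted p = 0.58), with 4 responders above every non-responder. Jak2 was at 0.15 ± 0.08 and Jak1, the most abundant, at 0.02 ± 0.04. Of the 5 measured interferon receptor chains and Irf9, all had higher estimates and none an unadjusted p under 0.05. The 8 other scalings, filters and tools each gave 1 of 5, and leaving out single tumors gave 0 to 3, the highest without responder 5. Irf9 was at 0.18 ± 0.08, Ifnar2 at 0.16 ± 0.09 and Ifnar1 at 0.09 ± 0.05. Of 20 interferon targets 15 had higher estimates and 2 an unadjusted p under 0.05, the nucleic acid sensor gene Zbp1 (0.45 ± 0.15) and Xaf1 (0.31 ± 0.13). The most abundant, Oasl2, was at 0.19 ± 0.11, and the median of the list was 0.07.

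**Figure D5:**
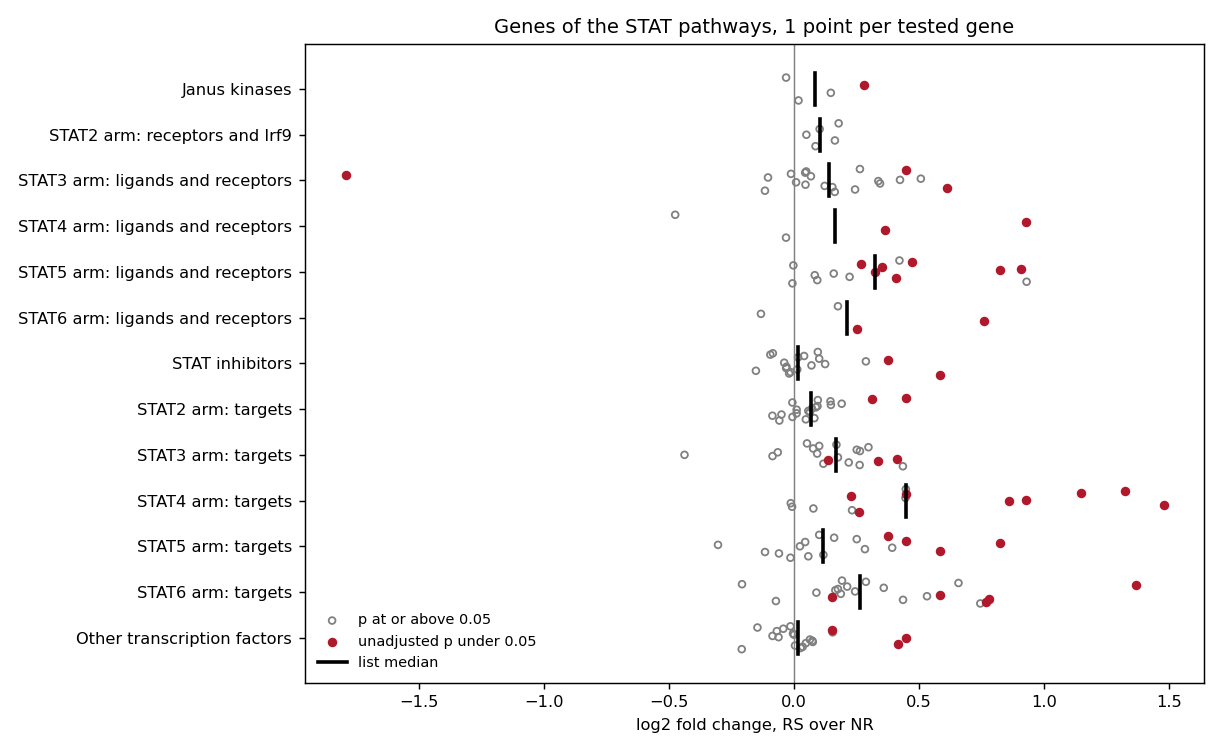
Log2 fold change, RS over NR, of every tested gene of the 13 lists, with genes at an unadjusted p under 0.05 in red and the list median as a black bar. The STAT4 target list has the highest median in this fit, 0.45, and 8 of its 14 genes in red.

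Among the ligands and receptors of STAT3, 20 of 22 passed the filter, 16 with higher and 4 with lower estimates, 2 and 1 of these at an unadjusted p under 0.05, and the median was 0.14. With single tumors left out, the higher ones at this threshold numbered 0 (without responder 11) to 5 (without responder 5 or non-responder 1). The median was then 0.07 (without responder 11) to 0.22 (without non-responder 1), and it was 0.007 with the T cell and NK cell covariate. Csf3r, the receptor of granulocyte colony-stimulating factor and also a neutrophil marker, was at 0.61 ± 0.23, and Il6st, the shared chain of the IL6 family, at 0.07 ± 0.07. Lep, the fat cell hormone leptin, was at -1.79 ± 0.67 but had at most 25 counts in any tumor and is also an adipocyte marker. Of the 19 STAT3 targets measured 16 had higher estimates and 3 an unadjusted p under 0.05, among them Icam1 (0.41 ± 0.16), an adhesion molecule, and Cebpd (0.34 ± 0.14). Mcl1, a survival gene and the most abundant, was at 0.09 ± 0.06, and the median was 0.17. With single tumors left out this median was 0.11 (without responder 11) to 0.23 (without responder 5).

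In the arm of STAT4, 4 of 6 ligands and receptors passed the filter, 2 with higher and 2 with lower estimates, and the median was 0.17 (0.09 to 0.5 with single tumors left out, and 0.65 with the stricter filter, which left 2 genes). The higher ones were the chains of the IL12 receptor, Il12rb2 at 0.93 ± 0.31 and Il12rb1 at 0.36 ± 0.16, both with an unadjusted p under 0.05, a count that fell to 1 on leaving out any 1 of non-responders 2, 6 and 7 or responders 9, 11 and 12. The lower ones, Il23a (-0.47 ± 0.35) and Il12b (-0.03 ± 0.28), named here after their values were seen, had at most 16 and 24 counts in any tumor. Of the 14 STAT4 targets 12 had higher estimates, 8 had an unadjusted p under 0.05 and the median was 0.45. The cytotoxic granule genes Gzmb and Prf1 led, at 1.48 ± 0.35 and 1.32 ± 0.38 (edgeR adjusted p = 0.58 for both), each with 4 responders above every non-responder. Gzmb averaged 64.2 ± 31.6 CPM in responders and 23.2 ± 7.26 in non-responders, and without responder 5 it was at 1.72 (edgeR adjusted p = 0.0302). In that fit 9 features had an adjusted p under 0.05. There 13.6% of all features had an unadjusted p under 0.05, beside 8.21% with all tumors. Furin, the most abundant target, was at 0.08 ± 0.08. None of these targets is on the T cell or NK cell lists, but Gzmb and Prf1 are granule genes of cytotoxic lymphocytes. A fit with these markers as a covariate therefore cannot separate target activity from cell content. In it 2 of the 14 were higher and 1 lower at an unadjusted p under 0.05, where 1.66% of all features were higher and 2.24% lower.

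Of the ligands and receptors of STAT5, 15 of 21 passed, 13 had higher estimates, 7 had an unadjusted p under 0.05 and the median was 0.32. Il2ra (0.82 ± 0.26) and Il2rb (0.91 ± 0.3), chains of the IL2 receptor, had the lowest p of the list, though another gene had a higher estimate. Il2rb is also an NK cell marker, and Csf2rb, the most abundant, was at 0.41 ± 0.15. With the T cell and NK cell covariate 1 of the 15 was higher at an unadjusted p under 0.05, as were 1.66% of all features. Of the 17 STAT5 targets 13 had higher estimates and 4 an unadjusted p under 0.05, with Il2ra and Cish (0.58 ± 0.24) leading and Ccnd1, a cell cycle gene and the most abundant, at -0.06 ± 0.06. The median was 0.12. Of the 4 measured ligands and receptors of STAT6, Il13ra1 (0.25 ± 0.09) and the decoy receptor Il13ra2 (0.76 ± 0.34) had an unadjusted p under 0.05, and Il4ra, the signaling chain, was at 0.18 ± 0.1. The list had 3 such genes without responder 5 or non-responder 1, 2 without responder 9, and 1 without any other tumor. Of 20 STAT6 targets 18 had higher estimates and 5 an unadjusted p under 0.05, and the median was 0.27. With single tumors left out this median was 0.2 (without responder 11) to 0.43 (without non-responder 1). Pdcd1lg2, which encodes a PD-1 ligand, was at 1.37 ± 0.49, the chemokine gene Ccl24 at 0.78 ± 0.27 and Tgm2, the most abundant, at 0.19 ± 0.11.

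Among the 18 inhibitors of STAT signaling, 10 had higher and 8 lower estimates, with a median of 0.02. Cish and Socs2 (0.38 ± 0.16), both fed by STAT5, had an unadjusted p under 0.05, which was so for no inhibitor without non-responder 2 or responder 11, and the phosphatase gene Ptpn11 was at -0.03 ± 0.05. Among 20 other transcription factors that act downstream of cytokine receptors the median was also 0.02 (-0.01 without non-responder 7 to 0.04 without non-responder 3), and 3 had an unadjusted p under 0.05, including Irf8 (0.45 ± 0.14) and Irf1 (0.41 ± 0.14), which has the highest mean level of the list. Leaving out responder 5 raised the counts of genes higher in responders at an unadjusted p under 0.05 to 11 of 19 for STAT3 targets, 9 of 14 for STAT4 targets, 8 of 17 for STAT5 targets and 9 of 20 for STAT6 targets, while interferon targets had 1 of 20 higher and 2 lower and a median that turned to -0.01. Lower at this threshold in that fit were 1 of the STAT3 targets, 2 of the STAT5 targets and 0 of the STAT4 and STAT6 targets. The share of all features higher at this threshold rose as well, from 4.21% to 6.85%, and that of features lower from 4% to 6.79%. Without responder 11, where 2.88% of all features were higher, the counts were 1, 6, 1, 1 and 1 in the same order. Other single tumors also moved them. Without non-responder 1, where 5.73% of all features were higher, they were 9 of 19 for STAT3 targets, 10 of 14 for STAT4 targets and 12 of 19 for STAT6 targets. Those of STAT3 fell to 0 without non-responder 7 or responder 10, where 2.71% and 3.49% of all features were higher. Those of STAT5 fell to 1 without non-responder 3, where 4.81% of all features were higher. Interferon targets reached 4 of 20 in that same fit without non-responder 3. With single tumors left out the share of all features higher ran from 2.71% (without non-responder 7) to 6.85% (without responder 5). With the T cell and NK cell markers as a covariate, where the share of all features higher was 1.66% in place of 4.21%, no gene was higher at this threshold among the STAT3 targets, the STAT5 targets, the STAT6 targets, the interferon targets, the Janus kinases, the inhibitors, the other transcription factors or the receptor lists of STAT2, STAT3, STAT4 and STAT6. The medians of the targets were then 0.0031 for STAT3, 0.01 for STAT5, -0.0056 for STAT6, 0.14 for interferon and 0.23 for STAT4.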

How the data were processed

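RNA of 10 WEHI 164 tumor pieces (5 RS, 5 NR, 1 piece per mouse) was sequenced as paired-end polyA libraries. The authors estimated transcript abundance with Kallisto, summarized it to genes with tximport on the mouse reference GRCm38 and deposited estimated counts per gene, not normalized for depth or length. The annotation release is not given in the sources used here. Of 36009 table entries, 9580 carried no gene name and held 1.2% to 1.49% of the counts per tumor. They were kept, and were left out as an alternative. Entries of 1 name were summed, which concerned 44 names, and the estimated counts were rounded to whole numbers.

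A feature was tested if its CPM exceeded 0.366 in 3 or more tumors, which left 15767. The test was the quasi-likelihood F test of edgeR 4.0.16 in R 4.3.3 on TMM-normalized libraries, with Benjamini-Hochberg adjustment over all features tested and a threshold of 0.05. TMM factors were 0.987 to 1.02, and the common dispersion corresponded to a coefficient of variation of 10.4% between tumors. DESeq2 1.42.0 and limma 3.58.1 (voom), other scalings, other filters, a covariate of T cell and NK cell markers and leaving out each tumor were alternatives. Level differences and marker scores, as means of log2(CPM + 1) with a pseudocount of 1, were tested by exact two-sided permutation over 252 assignments, and correlations by 100000 resamples with SciPy 1.17.1 in Python 3.11.15. No 2 of the 10 libraries agreed within counting error (chi-square per degree of freedom at least 5.18 over 45 pairs), so none was taken as deposited more than once, and p-values measure the spread between single tumors. The edgeR script was tested on simulated data first. Transcript lengths and coordinates were those of GENCODE vM21 and promoters those of RefSeq, both on GRCm38.

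The 6 STAT genes, the 13 pathway lists and the 13 marker lists were chosen with earlier results of these data known, and the lists were compiled manually from textbook knowledge. Genes named are, by rule, the 6 STAT genes, the 2 genes of lowest p and the most abundant gene of each pathway list, the most abundant gene of the cell type lists described, and the 3 genes with a name whose pattern over the tumors had the highest Pearson r with each STAT gene. Estimated counts carry an error of assignment between overlapping genes and paralogs that was not measured, and reads of opposite strands cannot be told apart where strand was not counted.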

Additional observations from a re-analysis of the deposited data

Results flagged for a closer look

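Within 1 group of 5, 1 tumor lay apart from the rest. The log2(CPM + 1) of Stat4 in responder 5 was 1.82, below the 2.51 to 2.6 of responders 9, 10, 11 and 12, and the gap was 0.879 of the range of the group, where 0.71 is the critical value for 5 samples. Of 64 groups of values examined, for the STAT genes and the list scores in responders and non-responders, this was the 1 found, and chance alone gives about 3.2 (1 in 20). Responder 5 had 65 rounded estimated counts of Stat4 in a library of 25627512, and its T cell score of 1.52 and NK cell score of 2.12 were also the lowest of the responders. Their part in the value was not tested.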

How the results depend on the processing

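Over 19 alternatives, no STAT gene reached an adjusted p under 0.05 (0.103 to 0.996, where DESeq2 gave none for Stat2, Stat4, Stat5a and Stat5b), and Stat2, Stat3, Stat4 and Stat5a kept a higher estimate in responders. Stat5b turned to -0.19 with the T cell and NK cell covariate and ranged from -0.0172 to 0.179 when single tumors were left out. Stat6 ranged from -0.0222 to 0.0097 when single tumors were left out. Under the covariate Il4ra (-0.0433), Il6st (-0.004) and Jak1 (-0.0134) turned. With single tumors left out Il4ra ranged from 0.1115 to 0.2502 and Jak1 from 0.0077 to 0.0411. Il6st then ranged from 0.0278 (without non-responder 2) to 0.1373 (without non-responder 1). The mammary epithelium score turned to 0.0098 with a pseudocount of 0.5 and ranged from -0.0598 to 0.0415 when single tumors were left out. On the log2(CPM + 1) scale the Stat5b difference ranged from -0.0264 to 0.153 and the Stat6 difference from -0.0263 to 0.004 when single tumors were left out. Features with an adjusted p under 0.05 numbered 4 with DESeq2 and 0 to 9 with single tumors left out, the 9 without responder 5. Features with an unadjusted p under 0.05 numbered 615 with the covariate and 839 to 2140 with single tumors left out, lowest without responder 11 and highest without responder 5. No paired analysis was possible because the tumor numbers do not recur between groups. The median of all features moved little under any setting (-0.0063 to 0.0013). Whether a setting's change has a biological cause was not tested. Stat4 had the fewest counts of the 6 genes, 84.4 on average.

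The counts of list genes and the correlations under each setting were chosen after seeing the data. The relations of Stat4 with the NK cell score (r = 0.935 to 0.965), the T cell score (0.898 to 0.918) and its targets (0.882 to 0.937) kept their direction, and that of Stat6 with its targets ranged from -0.111 (without responder 11) to 0.376.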
